A study of Mus musculus with 8 samples.

Results

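Expression of the genes that carry long-chain fatty acids into mitochondria and break them down there was followed in 4T1 cells, a mouse mammary carcinoma line, after acetate or vehicle. The genes were a fixed list of 9: the carnitine shuttle (Cpt1a, Slc25a20, Cpt2), the acyl-CoA dehydrogenases (Acadvl, Acadl, Acadm), the trifunctional protein (Hadha, Hadhb) and the kinase gene Pdk4. Of these, 8 matched a row by symbol in a table of 20189 genes, and Pdk4 had no row and was not analysed here. All of the listed enzymes act in mitochondria, so the peroxisomal arm of fatty acid oxidation was described from other genes.

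Cells of WT genotype were grown for 48 h in 5 mM acetate or in the vehicle (water), and poly-A RNA was sequenced from 4 libraries a group. Libraries with the same number carried a shared code in the labels and were taken as pairs. The study counts its replicates as independent experiments on a single cell line. With pairs kept, p-values measure how far the change within a pair varied between such experiments. They do not measure the spread of levels between experiments, or that between animals. The study used acetate as another source of acetyl-CoA, the product of fatty acid oxidation, to ask how its supply bears on gene expression and metastasis.

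Long-chain acyl-CoA cannot cross the inner mitochondrial membrane. CPT1 on the outer membrane hands the acyl group to carnitine, the carrier encoded by Slc25a20 exchanges acylcarnitine for free carnitine, and CPT2 inside hands the acyl group back to coenzyme A. Each turn of beta-oxidation then starts with a dehydrogenase that suits the chain length, and for long chains the trifunctional protein completes the turn and releases acetyl-CoA. CPT1 is the step at which malonyl-CoA, the first product of fatty acid synthesis, holds back oxidation, and many genes of the pathway are known targets of the nuclear receptors of the PPAR family.

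Values are normalised reads, scaled by the authors to a total of 20000000 per library, and the libraries rested on 19.9 M to 29.3 M reads (M, mega). The replicates differed in level for these genes. In vehicle and in acetate alike, replicate 1 was the lowest library for 7 of the 8 genes, Hadhb being the exception. Replicate 4 was the highest library for 7 of the 8 genes in vehicle and for 6 in acetate. Relative to the mean of the 3 other vehicle libraries, vehicle replicate 1 held 0.523 of their level for Cpt1a, 0.527 for Cpt2 and 0.624 for Acadl, against 0.964 for Hadha and 1.18 for Hadhb. Changes are therefore given within pairs, and the fit without pairs is given beside the calls. Of the cell type markers, all 6 mammary epithelial genes were present, with a summed 44747 to 66048 normalised reads in vehicle and 47891 to 68528 in acetate. Of these 6, Krt19 (log2 change 0.40, limma adjusted p = 2.54e-04), Cldn4 (0.30, 3.19e-04) and Cdh1 (0.15, 0.00592) were higher in acetate, and Epcam, Krt8 and Krt18 did not pass. Of 5 leukocyte markers 3 had a row (83.2 to 194 in vehicle, 69.1 to 188 in acetate, nearly all Cd68), of 4 endothelial markers 3 (at most 7.06), and of 4 adipocyte markers 1 (at most 10.5). Of 4 fibroblast markers 3 had a row, summing to 229 to 1523 in vehicle and 394 to 1998 in acetate. Nearly all of that was Pdgfra, which was higher in acetate (log2 change 0.52, limma adjusted p = 3.72e-04), as was Pdgfrb (0 to 21.2 in vehicle, 3.14 to 33.1 in acetate, limma adjusted p = 0.0119), while Dcn stayed between 0 and 14.5 and did not pass. Their part in the results was not tested.

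The sequences before the start sites were compared between the genes. All 9 had an entry in the RefSeq promoters (GRCm38.p6), and the 250 bases before the RefSeq start were searched on both strands for 4 motifs. The RefSeq start is not always the first base of the GENCODE gene span given below: for Cpt1a it lies 967 bases and for Hadha 182 bases inside that span, so the whole Cpt1a window is within the span, while for the 6 other genes with a row the starts differ by 5 to 48 bases. These were a PPAR-type direct repeat written AGGNCANAGGNCA, an ERR-type element written TNAAGGTCA, the receptor core AGGTCA, which is contained in every match of the ERR-type element and can be part of the direct repeat, and the GC box GGGCGG. The sequences below are those of the 3 genes with the clearest changes in acetate and of the region shared by Hadha and Hadhb, with the receptor core and the GC boxes in capitals and each written 5′ to 3′ on the strand of the gene.
Cpt1a, chr19:3323051-3323300 (+): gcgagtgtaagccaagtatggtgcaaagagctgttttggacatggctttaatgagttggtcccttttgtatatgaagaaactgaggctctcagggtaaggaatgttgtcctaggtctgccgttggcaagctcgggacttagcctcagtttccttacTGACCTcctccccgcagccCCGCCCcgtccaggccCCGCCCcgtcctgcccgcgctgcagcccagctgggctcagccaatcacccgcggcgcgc
Slc25a20, chr9:108661886-108662135 (+): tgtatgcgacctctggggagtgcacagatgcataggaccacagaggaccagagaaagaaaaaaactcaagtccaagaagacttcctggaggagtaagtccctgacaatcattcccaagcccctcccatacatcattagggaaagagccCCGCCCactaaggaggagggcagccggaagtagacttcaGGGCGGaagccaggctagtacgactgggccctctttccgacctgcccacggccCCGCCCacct
Acadvl, chr11:70015429-70015678 (-): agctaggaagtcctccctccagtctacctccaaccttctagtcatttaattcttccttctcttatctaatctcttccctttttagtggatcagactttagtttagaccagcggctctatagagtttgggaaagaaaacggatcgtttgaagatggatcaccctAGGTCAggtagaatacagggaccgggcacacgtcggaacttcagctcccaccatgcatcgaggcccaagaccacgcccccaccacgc
Hadhb, chr5:30155003-30155252 (+): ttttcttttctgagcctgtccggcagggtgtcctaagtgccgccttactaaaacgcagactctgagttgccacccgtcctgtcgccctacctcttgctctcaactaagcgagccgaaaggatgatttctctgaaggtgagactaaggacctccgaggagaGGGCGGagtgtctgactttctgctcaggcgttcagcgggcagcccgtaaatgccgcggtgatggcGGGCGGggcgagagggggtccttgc

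The direct repeat and the ERR-type element had no match in any of the 9 windows, and 0.338% and 1.14% of all 32851 RefSeq promoters of the same length held them. The receptor core was found once each for Cpt1a, Acadvl and Acadm, against 14.0% of all promoters. The GC box was found for Cpt1a (2), Slc25a20 (3), Cpt2 (2), Acadl (4), Hadha (1) and Hadhb (2), and not for Acadvl, Acadm or Pdk4, against 32.7% of all promoters. A match here describes letters in the window and says nothing of a factor at work. Hadha and Hadhb stand head to head on chromosome 5 with 272 bases between their RefSeq starts (30154980 and 30155253), so most of that interval is in the Hadhb sequence above.

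Part of this pathway was higher in acetate, by modest amounts. In limma with the replicate number as a block and Benjamini-Hochberg adjustment over all 20189 genes, 4 of the 8 genes passed an adjusted p of 0.05 and all 4 were higher in acetate: Cpt1a, Slc25a20, Acadvl and Acadl. Among all genes 8.64% were called, 5.99% as higher and 2.65% as lower. That split depended on the scaling: 1209 genes were higher and 535 lower here, against 1000 and 821 with median-of-ratios scaling and 1314 and 1086 with edgeR, and the 4 genes were called higher in each. Since each of the 8 genes had a mean above 100 normalised reads, they were also set beside genes with a mean of at least 100 normalised reads, of which 15.0% were called and 9.89% were higher. All 4 called genes were higher in 4 of 4 pairs, which held for 16.7% of all genes. It also held for 2226 of the 10292 genes with a mean of at least 100 normalised reads. The median log2 change was 0.10 over the 8 genes, 0.02 over all genes and 0.001 over those 10292. By step, 2 of 3 shuttle genes, 2 of 3 dehydrogenases and 0 of the 2 trifunctional protein genes were called in limma (0 of these at an unadjusted p under 0.05, and 0 with edgeR and DESeq2). Without the block, limma called 0 of the 8 genes and 0 of all genes, with 0 of the 8 and 353 of all at an unadjusted p under 0.05.

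**Figure D1:**
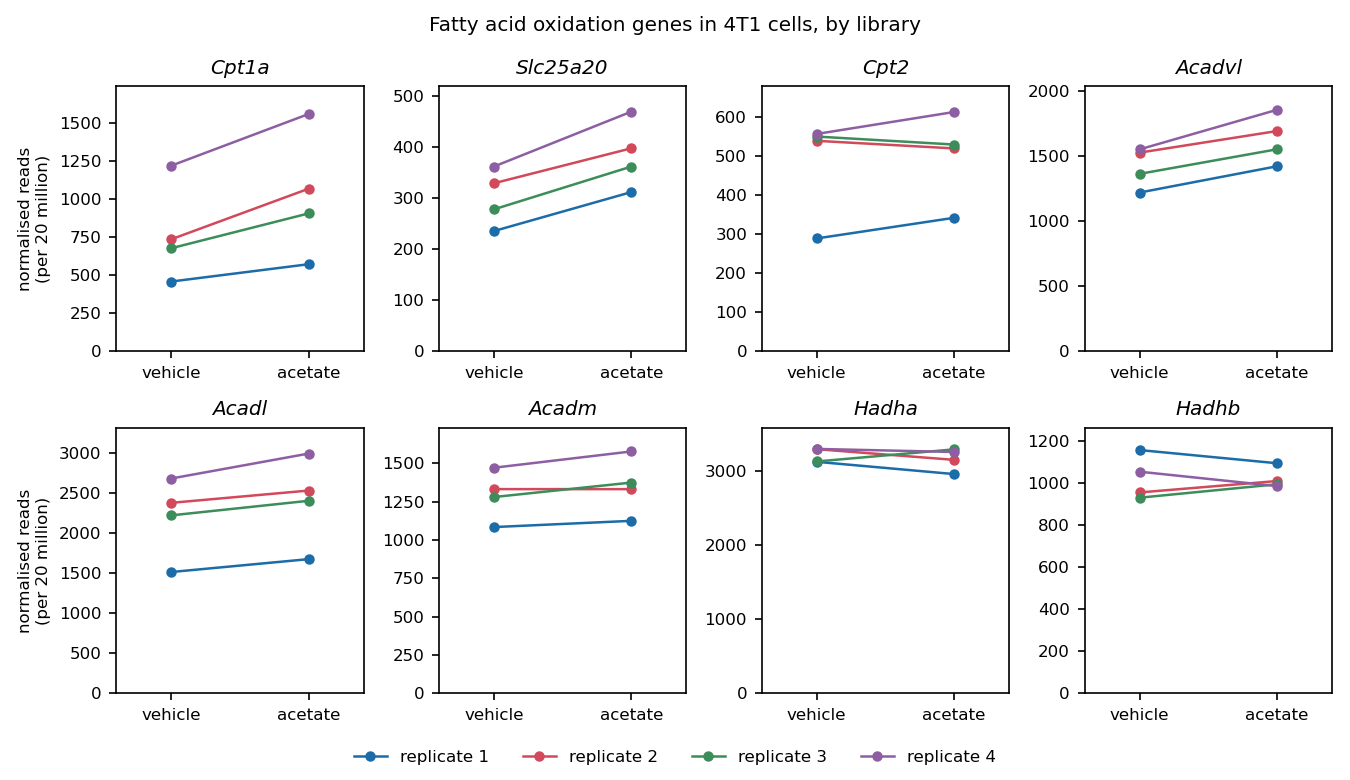
Normalised reads (vertical axes, each from 0, per 20000000) of the 8 fatty acid oxidation genes in vehicle and acetate, with a line joining the libraries of each of the 4 pairs. Cpt1a, Slc25a20, Acadvl and Acadl rise in every pair, while the pairs lie far apart in level, for Cpt1a from 460 to 1222 in vehicle.

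Cpt1a encodes the liver-type CPT1, the entry step of the shuttle (ENSMUSG00000024900, chromosome 19, 3322334 to 3385733, plus strand, GRCm38). It measured 460, 737, 679 and 1222 normalised reads in vehicle replicates 1 to 4 and 574, 1070, 908 and 1562 in acetate replicates 1 to 4. Each acetate library was above its own vehicle library, but the groups overlapped, since vehicle replicate 4 was higher than 3 of the acetate libraries. The means were 774 ± 321 and 1028 ± 411 (SD, n = 4), and the log2 change was 0.32, 0.54, 0.42 and 0.35 in the 4 pairs. The fitted change was 0.41 ± 0.04 (SE, 95% interval 0.31 to 0.50), a 1.33-fold rise with a limma adjusted p of 3.72e-04. Replicate number took up 85.7% of the variance of the log2 values of Cpt1a, treatment 13.8% and the remainder 0.570%. Without the block the unadjusted p was 0.280 (limma), so the rise stood out against the variation of the pairwise changes but not against that between replicates.

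Slc25a20, the carnitine-acylcarnitine carrier of the inner membrane (ENSMUSG00000032602, chromosome 9, 108662088 to 108684641, plus strand), was likewise higher in every pair. Its libraries held 236, 330, 278 and 362 normalised reads in vehicle and 312, 398, 362 and 470 in acetate. The groups overlapped here too, with vehicle replicate 4 as high as acetate replicate 3 and above acetate replicate 1. The means were 302 ± 55.8 and 386 ± 66.3 (SD, n = 4), and the pairs changed by 0.40, 0.27, 0.38 and 0.37 on the log2 scale. The fitted change of Slc25a20 was 0.36 ± 0.05 (SE, 95% interval 0.24 to 0.47), or 1.28-fold, with a limma adjusted p of 0.00216. Replicate number held 60.6% of its variance and treatment 38.7%, a larger share than for any other of the 8 genes. Without the block its unadjusted p was 0.0804 in limma.

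Cpt2, the last enzyme of the shuttle (ENSMUSG00000028607, chromosome 4, 107903981 to 107923610, minus strand), did not pass. Its libraries held 289, 538, 549 and 556 normalised reads in vehicle and 341, 519, 528 and 612 in acetate. Pairs 1 and 4 were higher in acetate (0.24 and 0.14 on the log2 scale) and pairs 2 and 3 lower (-0.05 in each). The fitted change was 0.07 ± 0.06 (SE, limma adjusted p = 0.548), with an interval from -0.06 to 0.19, so a rise of Cpt2 as large as that fitted for Cpt1a lay outside its interval. Replicate number held 96.0% of the variance of Cpt2, and replicate 1 was far below the others in both groups.

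The difference between the changes of Cpt1a and Cpt2 was also examined directly. The change of Cpt1a exceeded that of Cpt2 in 4 of 4 pairs, by 0.08, 0.59, 0.47 and 0.22 on the log2 scale and by 0.34 ± 0.23 on average (SD, n = 4). In the exact two-sided sign-flip permutation test 2 of the 16 sign assignments gave a difference as large, the fewest that 4 pairs allow, so this design could not reach 0.05. The ratio of Cpt1a to Cpt2 reads went from 1.59, 1.37, 1.24 and 2.20 in the vehicle libraries to 1.68, 2.06, 1.72 and 2.55 in the acetate libraries. Against the mean change of the 7 other genes, Cpt1a was ahead in 4 of 4 pairs by 0.29 ± 0.12, again with 2 of 16 sign assignments as large. These comparisons were 2 in number with the same p-value, which Benjamini-Hochberg adjustment therefore leaves as it is.

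The listed dehydrogenases for longer chains rose as well, by less than the 2 called shuttle genes. Acads, a short-chain dehydrogenase outside the fixed list, was also called higher (log2 change 0.18, limma adjusted p = 0.0196). Acadvl, the very-long-chain enzyme (ENSMUSG00000018574, chromosome 11, 70010183 to 70015411, minus strand), held 1222, 1528, 1365 and 1553 normalised reads in vehicle and 1424, 1695, 1554 and 1858 in acetate. Each pair was higher in acetate, by 0.22, 0.15, 0.19 and 0.26 on the log2 scale, and only acetate replicate 1 lay within the range of the vehicle libraries. Acadvl went from 1417 ± 155 to 1633 ± 187 (SD, n = 4), a log2 change of 0.20 ± 0.03 (SE, 95% interval 0.13 to 0.27) or 1.15-fold, with a limma adjusted p of 0.00344. Replicate number held 64.4% of its variance and treatment 34.2%. An exon of Acadvl overlaps Dvl2, a Wnt pathway gene on the other strand, and whether strand was used in counting is not given in the sources used here. Dvl2 did not pass, with means of 1241 ± 251 and 1214 ± 284 normalised reads (log2 change -0.04, limma adjusted p = 0.570).

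Acadl, the long-chain enzyme (ENSMUSG00000026003, chromosome 1, 66830839 to 66863277, minus strand), gave the smallest and least steady of the 4 calls. It held 1515, 2378, 2222 and 2681 normalised reads in vehicle and 1676, 2531, 2404 and 2993 in acetate. The groups overlapped widely, and replicate 1 was the lowest in both. Within pairs the change was 0.15, 0.09, 0.11 and 0.16, and fitted it was 0.13 ± 0.03 (SE, 95% interval 0.06 to 0.19), or 1.09-fold, with a limma adjusted p of 0.0190. Replicate number held 95.7% of the variance of Acadl and treatment 4.11%. The call of Acadl was lost without pair 2, pair 3 or pair 4 (limma adjusted p between 0.0761 and 0.101) and with DESeq2 on recovered reads (adjusted p = 0.122), while its change stayed between 0.11 and 0.14.

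Acadm, the medium-chain enzyme (ENSMUSG00000062908, chromosome 3, 153922357 to 153944632, minus strand), held 1084, 1331, 1280 and 1471 normalised reads in vehicle and 1125, 1331, 1374 and 1577 in acetate. Pair 2 was level and the 3 other pairs were higher by 0.05, 0.10 and 0.10 on the log2 scale. The fitted change of Acadm was 0.06 ± 0.03 (SE, limma adjusted p = 0.299), with an interval from -0.01 to 0.14.

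The trifunctional protein, whose alpha and beta subunits assemble into a single complex, showed no change that could be told from the spread. Hadha, the alpha subunit (ENSMUSG00000025745, chromosome 5, 30118304 to 30155162, minus strand), held 3131, 3302, 3135 and 3305 normalised reads in vehicle and 2965, 3157, 3299 and 3264 in acetate. Hadhb, the beta subunit (ENSMUSG00000059447, chromosome 5, 30155248 to 30184593, plus strand), held 1155, 954, 929 and 1052 in vehicle and 1092, 1008, 993 and 984 in acetate. For both genes some pairs went up and others down. The fitted log2 change of Hadha was -0.02 ± 0.03 (SE, interval -0.09 to 0.05, limma adjusted p = 0.755). For Hadhb the fold was 1.00, with a log2 interval from -0.09 to 0.09 and a limma adjusted p of 0.997. The intervals of both subunits ended below the lower bound of Cpt1a (0.31), of Slc25a20 (0.24) and of Acadvl (0.13). Reads of Hadha per read of Hadhb came to 3.17 ± 0.336 in vehicle and 3.12 ± 0.286 in acetate (SD, n = 4), higher in 2 of 4 pairs. Hadhb was highest in replicate 1 in both groups, unlike every other gene of the list. Hadha was lowest in replicate 1 in both groups, in vehicle by little (3131 against 3135 in replicate 3).

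**Figure D2:**
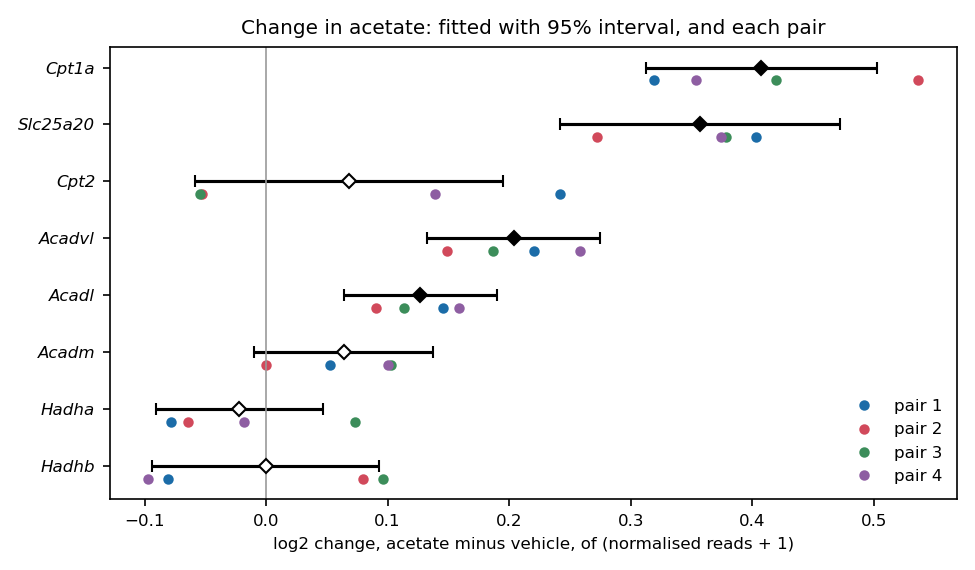
Log2 change of each gene, acetate minus vehicle: diamonds give the fitted value with its 95% interval (filled where the limma adjusted p was under 0.05) and coloured points the 4 pairs. Cpt1a (0.41) and Slc25a20 (0.36) lie to the right of Acadvl (0.20) and Acadl (0.13), while the intervals of Cpt2, Acadm, Hadha and Hadhb cross 0.

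To compare genes with each other, normalised reads were divided by the length in kilobases of the longest principal transcript of GENCODE M21. On that scale the vehicle levels were 1148 ± 258 for Acadl, 801 ± 24.5 for Hadha, 654 ± 71.4 for Acadvl, 631 ± 78.2 for Acadm, 499 ± 50.4 for Hadhb, 204 ± 54.7 for Cpt2, 179 ± 74.4 for Cpt1a and 169 ± 31.3 for Slc25a20 (SD, n = 4). The 3 shuttle genes thus formed the lower end, and the enzymes of beta-oxidation itself the upper end. The ranges of the vehicle libraries did not overlap between Hadha and Acadvl, nor between Hadhb and Cpt2. The other neighbours in this order overlapped: Acadl with Hadha, Acadvl with Acadm, Acadm with Hadhb, Cpt2 with Cpt1a, and Cpt1a with Slc25a20. The other forms of CPT1, chosen for mention after their values were seen, were lower in vehicle: Cpt1c, the brain form, had 51.3 ± 18.9 per kilobase, and Cpt1b, the muscle form, had 1.29 ± 0.647, which was 1.53 to 6.03 normalised reads in a library.

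**Figure D3:**
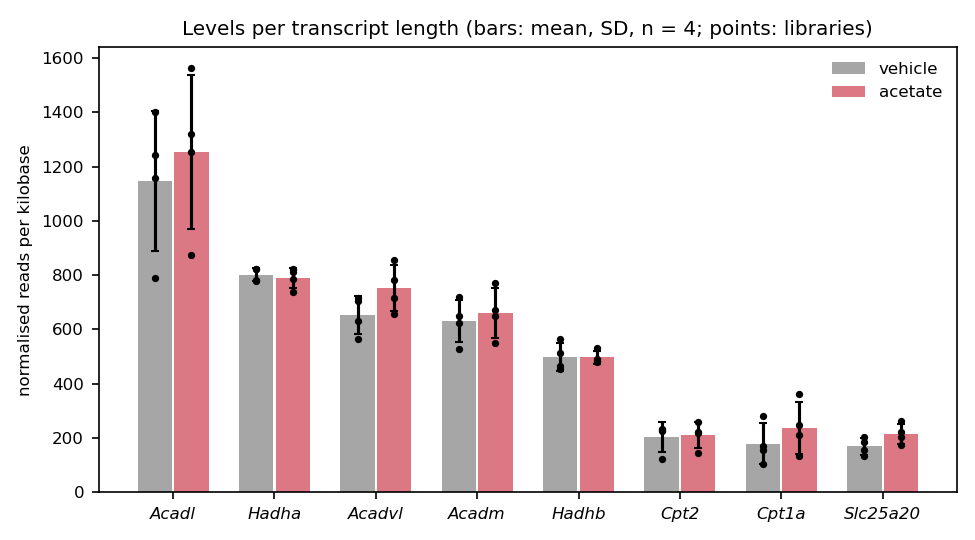
Normalised reads per kilobase of transcript for the 8 genes, with bars for the mean, error bars for the SD (n = 4) and points for the libraries. The 3 carnitine shuttle genes had vehicle means of 169 to 204, and the 5 genes of the later steps 499 to 1148.

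The genes with the pattern most like that of Cpt1a over the 8 libraries were looked up in the whole table. Likeness was measured as the root mean square difference of log2 values, each gene centred on its mean, among 13284 genes with a mean of at least 10 normalised reads. The 5 nearest genes were Lmo7 (0.0540), Iqgap2 (0.0765), Gstm2 (0.0842), Rassf3 (0.0927) and Npnt (0.0995). All 5 had the low replicate 1 and the rise in acetate in common with Cpt1a, with log2 changes of 0.28 to 0.38. Within the pathway the distances were 0.275 for Acadl, 0.300 for Slc25a20, 0.328 for Cpt2, 0.391 for Acadm, 0.394 for Acadvl, 0.519 for Hadha and 0.597 for Hadhb. The nearest genes were picked from the whole table, so their smaller distances were fixed by the choice, and the libraries share their replicate differences across many genes.

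A wider set of 140 genes in 11 lists set the 8 genes in their pathway, and 127 of them had a row. Of these 127 genes 18 were called, 14 higher and 4 lower (14.2%), and the median log2 change was 0.06. Over all genes the share was 8.64%. Among genes with a mean of at least 10 normalised reads it was 18 of 115 (15.7%) in the lists and 12.9% over all, and at a mean of at least 100 it was 17 of 102 (16.7%) and 15.0%. Most of these calls were lost when pair 2, 3 or 4 was left out, but not without pair 1. Leaving out pair 2, 3 or 4 left 4, 5 or 6 of the 127 genes called, against 16 without pair 1. DESeq2 called 8. Of the 18 genes, Acsf2, Acsl6, Ucp2 and Plin2 kept their call in all 11 alternatives that kept the block, and the 14 others lost it in at least 1. In limma without pairing, 0 of these genes passed and 2 had an unadjusted p under 0.05.

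Fatty acid activation, which links fatty acids to coenzyme A before the shuttle, had 3 of 8 genes higher and none lower. Acsf2, an acyl-CoA synthetase of the mitochondrion, measured 145, 358, 351 and 498 normalised reads in vehicle and 200, 485, 566 and 607 in acetate. Every pair rose while the groups overlapped, and the log2 change was 0.47 ± 0.06 (SE, limma adjusted p = 0.00168). Acsl6, a long-chain synthetase, rose from 300.2 ± 88.1 to 385 ± 97.2 (log2 change 0.37 ± 0.06, limma adjusted p = 0.00228). Acsl4, which prefers polyunsaturated chains such as arachidonate, rose from 7728 ± 2356 to 8820 ± 3275 in 3 of 4 pairs (0.16 ± 0.04, limma adjusted p = 0.0439). Of the 7 uptake and binding genes with a row, 1 was called: Slc27a1, a fatty acid transport protein, with a log2 change of 0.14 ± 0.03 (limma adjusted p = 0.0147).

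Among 6 other carnitine genes limma called 0 (3 with an unadjusted p under 0.05), edgeR 1 and DESeq2 0. Those with the highest mean values were Crot, which makes carnitine esters in peroxisomes, with 871 ± 265 and 942 ± 281 normalised reads, and Crat, which does so for short chains, with 510 ± 60.9 and 555 ± 41.2 (limma adjusted p = 0.154 and 0.151). Of 21 other enzymes of mitochondrial beta-oxidation, 2 were called, both higher: Acads, the short-chain dehydrogenase (862 ± 102 to 972 ± 74.6, log2 change 0.18 ± 0.04, limma adjusted p = 0.0196), and Acaa2, a thiolase of the matrix (697 ± 202 to 805 ± 151, 0.24 ± 0.06, limma adjusted p = 0.0290). The remaining 19, among them the electron transfer flavoprotein genes, did not pass. DESeq2 called 0 of the 21 and edgeR 3, and limma called 0 without pair 1, 2 or 3. For Acaa2 the pairs were uneven, at 0.39, 0.18, 0.36 and 0.01.

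The list of peroxisomal oxidation genes gave 3 higher and 1 lower of 20 genes with a row. Acox3, an acyl-CoA oxidase for branched chains, rose by 0.22 ± 0.06 (limma adjusted p = 0.0457), and Cat, the catalase that removes the hydrogen peroxide made by the oxidases, rose by 0.12 ± 0.03 (limma adjusted p = 0.0468). Nudt19, a hydrolase of coenzyme A and its esters in peroxisomes, fell by 0.22 on the log2 scale, from 468 ± 192 to 406 ± 174 and in 4 of 4 pairs (limma adjusted p = 0.0177). These peroxisomal calls were weak: 0 of the 20 genes passed in limma without pair 2, 3 or 4 or in DESeq2, and 3 passed in edgeR. Of 16 peroxisome biogenesis genes limma called 0, with 5 at an unadjusted p under 0.05, as did edgeR and DESeq2. Those with the highest means, Pex19 and Pex6, had log2 changes of 0.00 and 0.11 (limma adjusted p = 0.962 and 0.0778).

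Genes that govern entry of fuel into the mitochondrion were mostly not called. In the list for malonyl-CoA and AMP kinase, 1 of 9 genes passed: Acaca, the acetyl-CoA carboxylase that makes malonyl-CoA, went from 2793 ± 419 to 2592 ± 322 normalised reads. It was lower in 4 of 4 pairs, with a log2 change of -0.10 ± 0.03 (limma adjusted p = 0.0459). Of 13 genes for pyruvate entry 2 were called, both lower: Mpc2, a subunit of the mitochondrial pyruvate carrier (384 ± 49.8 to 317 ± 30.3, log2 change -0.27 ± 0.06, limma adjusted p = 0.0181), and Pdhb, a subunit of pyruvate dehydrogenase (2184 ± 102 to 2023 ± 107, -0.11 ± 0.03, limma adjusted p = 0.0397). Acaca and Pdhb lost their calls whichever of the 4 pairs was left out, and Mpc2 without pair 2, 3 or 4. Acaca, Mpc2 and Pdhb then had limma adjusted p-values of up to 0.189, 0.135 and 0.214, in that order. The median over these 13 genes was -0.08, and 7 were lower and 2 higher in 4 of 4 pairs. Over all genes 11.4% were lower in 4 of 4 pairs, and 18.2% of those with a mean of at least 100 normalised reads. Pdk4, which would belong here as an inhibitor of pyruvate dehydrogenase, was not analysed, and of its relatives, named after their values were seen, Pdk1, Pdk2 and Pdk3 did not pass (limma adjusted p = 0.790, 0.154 and 0.186).

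**Figure D4:**
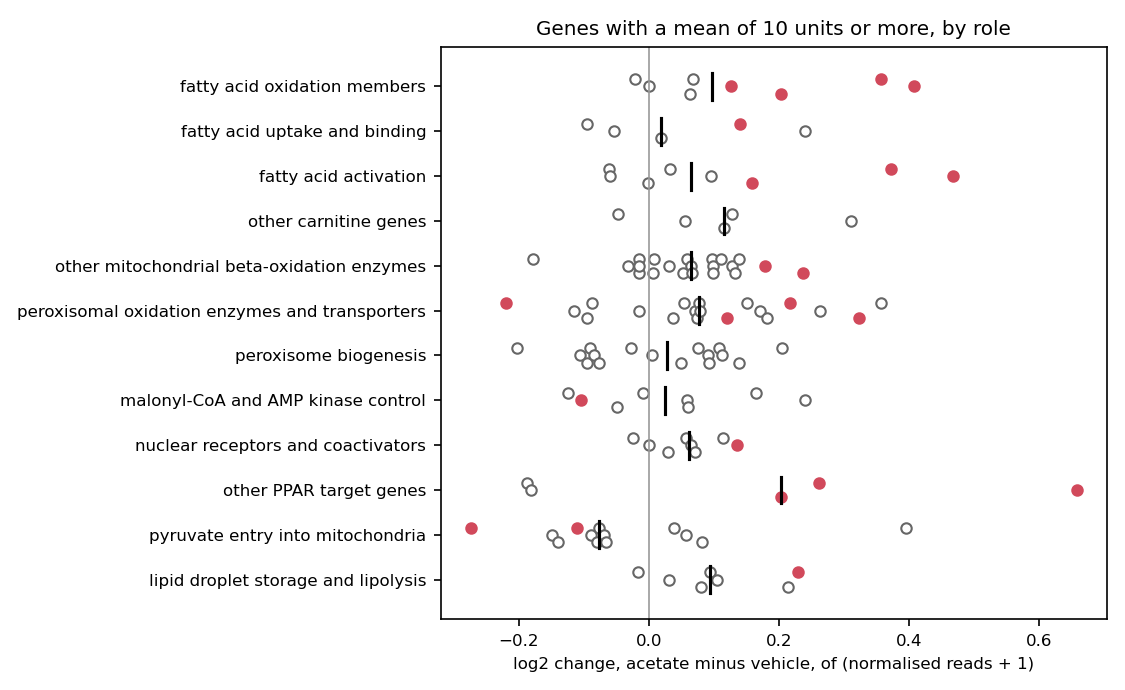
Log2 change (acetate minus vehicle) of each gene with a mean of at least 10 normalised reads, by role, with filled points for a limma adjusted p under 0.05 and bars at the median of the points shown. Called genes lie to the right of 0 except Nudt19, Acaca, Mpc2 and Pdhb, and the farthest right is Acot1 at 0.66.

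Among the nuclear receptors and their coactivators 1 of 11 genes passed, Lpin2, a phosphatidate phosphatase of the lipin family whose member lipin 1 is known as a coactivator (log2 change 0.14 ± 0.03, limma adjusted p = 0.0185). The PPAR genes themselves are named after their values were seen. Ppard had 1583 to 2012 normalised reads over the 8 libraries (limma adjusted p = 0.996 for acetate), while Ppara had 0 to 2.42 and Pparg 0 to 7.04, so changes of these last genes were not detectable at this depth. Of 8 other PPAR target genes with a row 3 were called, all higher. Ucp2, an uncoupling protein homologue of the inner membrane, held 3336, 4262, 4037 and 4099 normalised reads in vehicle and 4079, 5070, 4892 and 4808 in acetate, a log2 change of 0.26 ± 0.03 (limma adjusted p = 3.13e-04). Plin2, the coat protein of lipid droplets, held 2845, 2905, 2702 and 3137 in vehicle and 3232, 3297, 3125 and 3694 in acetate (0.20 ± 0.03, limma adjusted p = 0.00130). For both genes each pair rose, and only the lowest acetate library lay within the range of the vehicle libraries. Acot1, a cytosolic acyl-CoA thioesterase, went from 43.9 ± 15.3 to 68.6 ± 22.1 (0.66 ± 0.15, limma adjusted p = 0.0168), but it has near-identical relatives with which reads may be shared, so its value is uncertain. The median over the 8 target genes was 0.02, the same as over all genes.

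In the lipid droplet list 1 of 8 genes with a row was called. Abhd5, the activator of the lipase that opens triglyceride breakdown, went from 866 ± 80.7 to 1025 ± 181 normalised reads, with a log2 change of 0.23 ± 0.05 (limma adjusted p = 0.0238). It rose in 3 of 4 pairs and was level in pair 1 (-0.01), and its call was lost without pair 2, 3 or 4 (limma adjusted p of up to 0.185). In bulk RNA, fewer cells of a type and less RNA per cell cannot be told apart, and this holds for every change above.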

How the data were processed

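Poly-A RNA of 4T1 cells was sequenced from stranded libraries. The submitters' processing notes name STAR, HTSeq and builds mm10 and GRCm38, and whether counting used strand is not given in the sources used here. What the authors deposited is a signal, reads per gene scaled to a total of 20000000 in each library. All values were whole multiples of what 1 read was worth (100% within 0.1 read), which gave back the reads. Each of the 20189 genes was above 0 in at least 4 of the 8 libraries, a filter that can leave out low genes. Symbols and gene spans came from GENCODE M21 on GRCm38 (20004 identifiers matched, 185 did not).

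Changes were computed with limma 3.58.1 in R 4.3.3 (two-sided, lmFit and trended eBayes) on values converted to log2(value + 1), with the replicate number as a block, Benjamini-Hochberg adjustment over all genes and calls under 0.05. This scale understates changes of low genes. Numbers pair the libraries by their shared codes in the labels, and deviations from the group means of same-numbered libraries correlated at 0.81, 0.27, 0.20 and 0.69 over 18188 genes. The permutation tests used Python 3.11.15. Alternatives were pseudocounts of 0.1 and 5, a filter at a mean of 10, median-of-ratios and quantile scaling, no block, edgeR 4.0.16 and DESeq2 1.42.0 on recovered reads, and leaving out each pair. The fit was tested on simulated data in which same-numbered libraries shared their levels by construction, so that test could not check the pairing.

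Genes named were all listed genes, in each other list up to 4 called genes with the smallest adjusted p and a mean of at least 10 (otherwise the 2 with the highest mean), and the 5 genes most like Cpt1a. The genes and lists were chosen with earlier results of these data known. A gene that this rule picked is not reported here, and the counts include it.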

Additional observations from a re-analysis of the deposited data

Results flagged for a closer look

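The level of Cpt2 in vehicle replicate 1 lay far from the other vehicle libraries, at 289 normalised reads against 538 to 556. Its gap to the nearest library was 0.934 of the range of the group, above Dixon's 95% limit for 4 samples. Of 60 groups of values examined in this way (30 genes in each treatment), about 3 would pass that limit by chance, since it is passed by about 1 in 20, and 1 did.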

How the results depend on the processing

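No value of a fatty acid oxidation gene or of a named pathway gene that passed the threshold changed sign under the 12 alternatives. Of 96 alternative values of the 8 genes, 88 kept their side of the threshold and 8 lost the call: 4 without the replicate block and 4 of Acadl. With the block kept, Cpt1a stayed between 0.36 and 0.44 (highest adjusted p 0.0202), Slc25a20 between 0.32 and 0.39 (0.0389) and Acadvl between 0.18 and 0.22 (0.0442). Without the replicate block, limma called 0 genes in all (353 with an unadjusted p under 0.05), 0 of the 8 genes (0) and 0 of the other pathway genes (2), against 1744, 4 and 18 with it. Leaving out a pair gave 409 to 1662 genes in all, 3 to 4 of the 8 genes and 4 to 16 of the other pathway genes, with 4, 5 and 6 of the last without replicates 2, 3 and 4. DESeq2 called 1126, 3 and 8, and the cause was not tested. The share of higher genes among all calls was 69.3%, but 54.9% with median-of-ratios scaling, 54.8% with edgeR and 58.0% with DESeq2. For the differences between Cpt1a and the other genes 2 of 16 sign assignments were as large with pairs kept, and without pairs the exact permutation p was 0.2 (Cpt2) or 0.343 (7 genes).

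Of 264 alternative values of the 22 named pathway genes, 179 kept their side, 84 lost the call and 1 gained it. Of those 84, 18 were lost in the fit without the block, and leaving the block out changed no other call. From 277 to 4843 reads stood behind each value of the 8 genes, and 4 pairs limit the precision.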
